A study of Mus musculus with 24 samples.

Results

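The embryos described here are 6 split morulae and the 5 control morulae they were set against, out of 24 single mouse embryos whose RNA was sequenced. They were chosen by the stage and treatment that the sample labels give. A split morula grew from 1 blastomere of a late two-cell embryo. The 2 blastomeres were pretreated in G-PGD biopsy medium, parted by micromanipulation and cultured singly in modified sodium hyaluronate gel, so the 6 split morulae form 3 pairs of sisters from 3 two-cell embryos. A control morula was an undivided embryo cultured alongside. All embryos were of the ICR strain, were made by in vitro fertilization and were kept at 37°C in 5% O2 and 6% CO2. The manipulation, the biopsy medium and the gel come only with the split embryos as the labels describe them, so their parts in any difference cannot be told apart. The labels give no litter, batch, sex or cell number. The other 13 embryos of the series are control 8-cell embryos, split blastocysts and control blastocysts.

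Each blastomere of a two-cell mouse embryo can form a whole embryo, which then starts with a full genome but less cytoplasm. At the morula stage the cells flatten against each other and gain an outer polar surface, and outer cells begin to express trophectoderm genes such as Cdx2 and Gata3 while inner cells keep pluripotency genes such as Nanog and Sox2. Mitochondria are inherited from the egg, and maternal transcripts such as Dppa3 are still being lost at this time.

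Libraries were made with Smart-seq2, which copies polyadenylated RNA from an oligo(dT) primer, and values are normalised read counts in the usual CPM unit (counts relative to a fixed library total, scaled between libraries). Counted reads per embryo were 14.1 M to 18.9 M in split and 13.9 M to 19 M in control morulae. The summed level of 8 embryo markers (Dppa3, Nanog, Gata3, Krt8, Krt18, Tfap2c, Cdh1 and Pou5f1) was 7212 to 15195 CPM in split and 11427 to 13663 CPM in control morulae. Of 10 cumulus and granulosa markers, 8 had no count in any of the 11 embryos, and the sum of the list was 0 to 2.05 CPM in split and 0 to 0.151 CPM in control morulae. A list of 7 sperm markers summed to at most 3.42 CPM in split and 1.89 CPM in control morulae. The 6 blood and immune markers summed to 2.10 to 116 CPM in split and 4.04 to 17.4 CPM in control morulae, the highest value being that of blastomere 2 of pair 3, in which Hba-a1, a haemoglobin gene, reached 103 CPM. Fibroblast markers summed to at most 9.06 CPM in split and 2.23 CPM in control morulae. Y-linked genes and Xist gave the same sex for both sisters of every pair.

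Pair 3 stood apart from the rest. Over 6759 genes with a mean of at least 10 CPM, its embryos had a Pearson's r to the mean of the control morulae of 0.694 and 0.692. The other 4 split morulae had 0.796 to 0.844, and each control morula had 0.906 to 0.931. Against the mean of the control 8-cell embryos, pair 3 had 0.674 and 0.681, the other split morulae 0.594 to 0.635 and the control morulae 0.684 to 0.711. Against the control blastocysts, pair 3 had 0.559 and 0.536, the other split morulae 0.689 to 0.750 and the control morulae 0.756 to 0.806. The labels name pair 3 a morula like the others. Whether pair 3 had reached the same stage as the other pairs when it was collected was not tested. Values below include all 3 pairs unless they are given as without pair 3.

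Nanog, which marks the future epiblast, had 217 and 490.4 CPM in split pair 1, 541 and 197 CPM in split pair 2 and 11.5 and 33.1 CPM in split pair 3, against 358, 250.2, 339.6, 387 and 295 CPM in the 5 control morulae. Both sisters of pair 3 lay under all other embryos. Cdx2, the transcription factor that maintains trophectoderm, had 20.2 and 29.2 CPM in split pair 1, 15.6 and 14.7 CPM in split pair 2 and 0 and 0 CPM in split pair 3, against 0.699, 0.0651, 0.456, 3.65 and 2.4 CPM in the 5 control morulae. It was thus above every control morula in pairs 1 and 2 and had no count in pair 3. Gata3, another trophectoderm factor, was also lowest in pair 3 within the split group, with 481 and 293 CPM in split pair 1, 479.7 and 549 CPM in split pair 2 and 193 and 22.4 CPM in split pair 3, against 199, 248, 273, 140.2 and 179 CPM in the 5 control morulae. The keratin Krt8 of the trophectoderm epithelium had 830.1 and 421 CPM in split pair 1, 349 and 636 CPM in split pair 2 and 244 and 71.3 CPM in split pair 3, against 149, 154, 267, 134 and 258 CPM in the 5 control morulae. The means of these 4 genes in control 8-cell embryos were 40.1 CPM for Nanog, 0.509 CPM for Cdx2, 5.5 CPM for Gata3 and 3.5 CPM for Krt8. Amot, which activates the Hippo kinases in inner cells, and the hydrolase Cmbl were at 0 or near it in both sisters of pair 3 and at 13.2 CPM or more in every other split or control morula. Their means in control 8-cell embryos were 14.2 CPM for Amot and 3.98 CPM for Cmbl.

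Other genes were highest in pair 3. Trim43c, one of a family first transcribed at genome activation, had 10.9 and 5.4 CPM in split pair 1, 25.4 and 13.8 CPM in split pair 2 and 196 and 340.2 CPM in split pair 3, against 25.6, 7.23, 0.607, 5.86 and 2.17 CPM in the 5 control morulae. Its mean was 156 CPM in control 8-cell embryos. Reads of Trim43c may be shared with its near-identical copy Trim43b, so its level is uncertain. Klf17, a Krüppel-like factor, had 12.4 and 98.1 CPM in pair 3 and at most 3.31 CPM in the other 9 embryos, with 56.1 CPM in control 8-cell embryos. Enpp3, an ectonucleotidase, was at 0 in the 4 embryos of pairs 1 and 2 and at 72.9 and 175 CPM in pair 3, against 7.05, 6.71, 2.73, 5.86 and 5.37 CPM in the 5 control morulae. Ccne1, the cyclin that drives entry into S phase, had 165 and 266 CPM in split pair 1, 274 and 215 CPM in split pair 2 and 603 and 999.8 CPM in split pair 3, against 159, 80.5, 142, 188 and 190.1 CPM in the 5 control morulae. Ccne1 was also above every control morula in both sisters of pair 2 and in blastomere 2 of pair 1. The means in control 8-cell embryos were 43.8 CPM for Enpp3 and 163 CPM for Ccne1, so Ccne1 in pair 3 was far above that stage too.

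**Figure D1:**
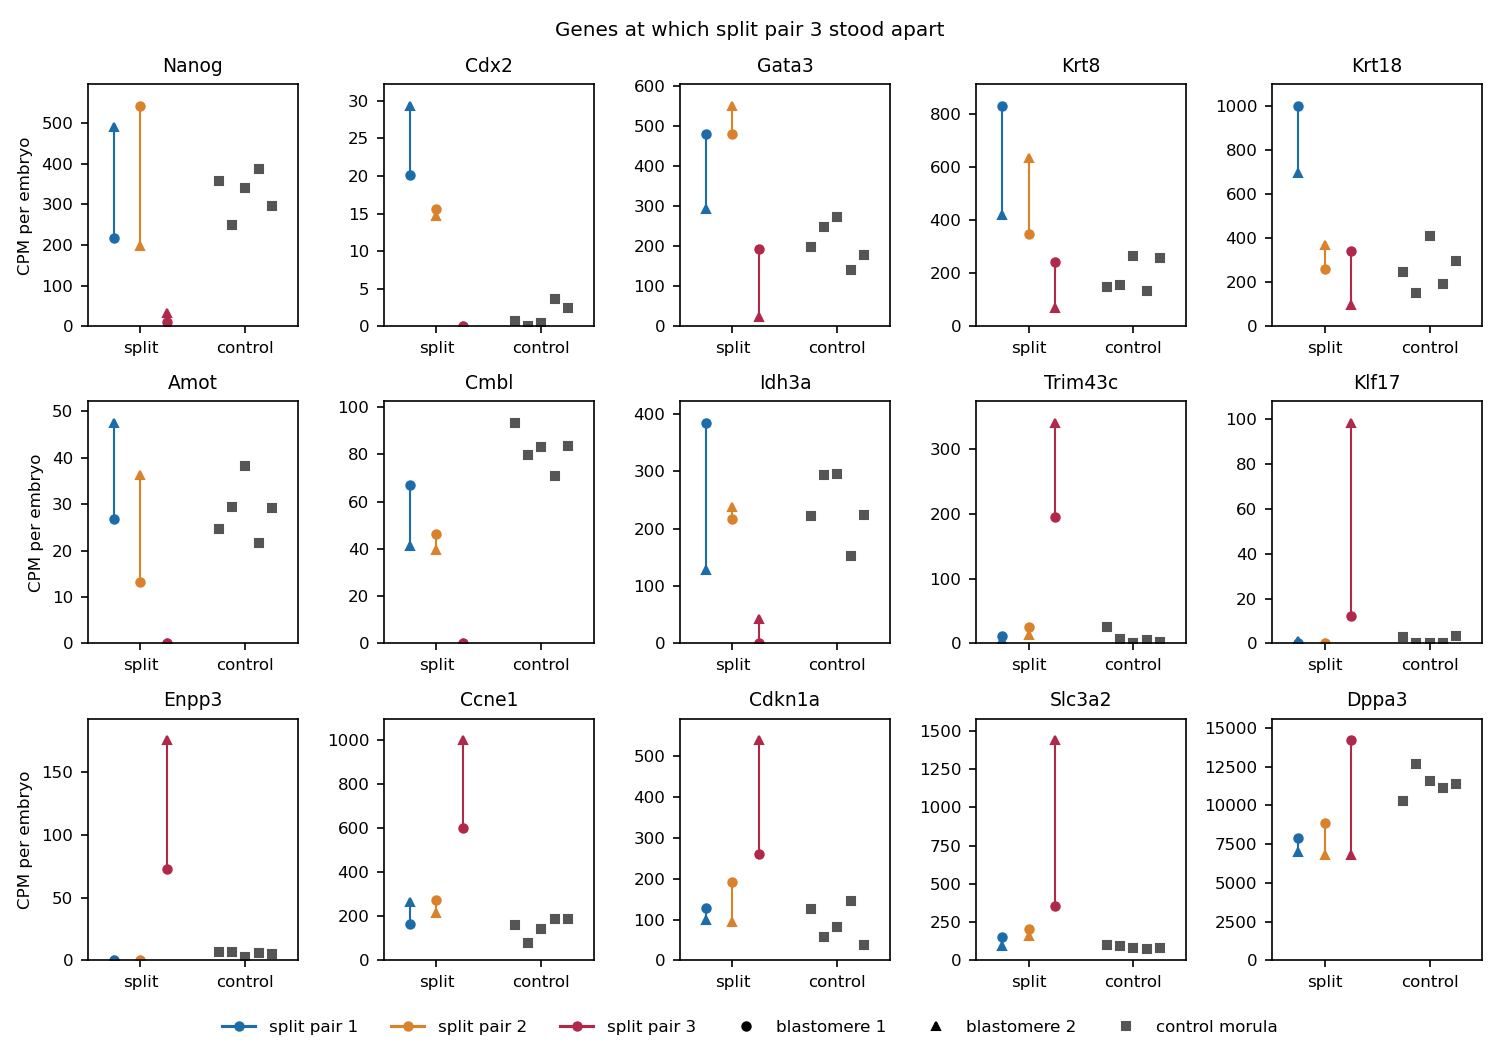
Level of 15 genes in each embryo, in CPM on a linear axis that starts at 0, with split morulae on the left and control morulae on the right. Colours mark the 3 split pairs, circles and triangles the 2 blastomeres, lines join sisters, and squares are control morulae; both sisters of pair 3 were lowest for Nanog and highest for Trim43c, Enpp3 and Ccne1.

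Each of the 3 embryo pairs was summed to 1 unit, since sisters are not independent, and 3 split units were compared with 5 control morulae by edgeR's quasi-likelihood test over 15875 genes. Calls needed a p under 0.05 after Benjamini-Hochberg adjustment. Of the genes tested, 11 rose in split morulae (0.0693%) and 9 fell (0.0567%). At an unadjusted p under 0.05, 1162 genes were higher (7.32%) and 1215 lower (7.65%) in split morulae. The single embryos of the groups did not overlap at 361 genes (2.27%), of which 109 were higher and 252 lower in split morulae. They did not overlap at 16 of the 20 called genes, a comparison that the calls themselves favour. Origins of the control embryos are not stated, so the p-values here refer only to the spread among the sampled embryos. In such bulk embryo samples, fewer cells of a type and less of a transcript per cell cannot be told apart.

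The count of calls rests on few embryos. Without pair 3, 7 of 17115 genes were called (0.0409%), among them 4 of the 20, namely Poldip3, Rap1b, Nsmce4a and Crls1. In that fit all 20 had an unadjusted p under 0.05 in the same direction. The 20 had been chosen with these same embryos among others, which favours that outcome. At this unadjusted threshold 4.83% of all genes were higher and 4.97% lower. Without pair 2 the count was 5, and without control morula 1, 2 or 3 it was 8, 4 and 4. Without pair 1 it was 51.

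Poldip3, which rose, had the smallest p of all genes. Its protein, known as SKAR, binds the exon junction complex and the mRNA export machinery and couples them to S6 kinase and translation. It had 241 and 412 CPM in split pair 1, 224 and 339 CPM in split pair 2 and 304 and 413 CPM in split pair 3, against 88.4, 100.1, 81.1, 90.2 and 109.9 CPM in the 5 control morulae. Every split embryo was above every control, by a factor of 3.4 between the means (log2 fold change 1.76 ± 0.20, adjusted p = 0.000332). Pair 3 was close to the other 2 pairs, and without it the log2 fold change was 1.68. In control 8-cell embryos the mean was 46.4 CPM.

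Rap1b had the smallest p of the genes that fell. It encodes a small GTPase that acts on integrins and cell junctions. Its levels were 212 and 213 CPM in split pair 1, 170.1 and 208 CPM in split pair 2 and 132 and 92 CPM in split pair 3, against 494, 589.6, 572, 502 and 583 CPM in the 5 control morulae. The split embryos thus held 31.3% of the control level (log2 fold change -1.68 ± 0.21, adjusted p = 0.000773). Pair 3 was the lowest, and the log2 fold change was -1.44 without it. The mean of control 8-cell embryos was 539 CPM, close to that of control morulae.

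Nsmce4a, a subunit of the SMC5/6 complex that guards replicating and recombining DNA, had 147 and 212 CPM in split pair 1, 130.3 and 135 CPM in split pair 2 and 69.3 and 122 CPM in split pair 3. Control morulae had 332, 564, 404, 407 and 335 CPM. The highest split value was under the lowest control value (log2 fold change -1.60 ± 0.22, adjusted p = 0.00206). Crls1, cardiolipin synthase of the inner mitochondrial membrane, had 39 and 21.5 CPM in split pair 1, 34.1 and 25.8 CPM in split pair 2 and 30.3 and 36 CPM in split pair 3, against 78.3, 104, 88.8, 88.2 and 69.9 CPM in the 5 control morulae (log2 fold change -1.45 ± 0.23, adjusted p = 0.00942). Its 3 pair sums were nearly equal, at 31.8 ± 1.46 CPM in split and 86.8 ± 13.3 CPM in control morulae (SD, n = 3 pairs and 5 embryos). Over single embryos the SD of log2 CPM of Crls1 was 0.32 in split and 0.22 in control morulae. Mrm3, a methyltransferase of the large mitochondrial ribosomal RNA, rose, with 135 and 185 CPM in split pair 1, 196 and 107 CPM in split pair 2 and 191 and 150.3 CPM in split pair 3, against 57.5, 50.6, 44.6, 65.6 and 74.9 CPM in the 5 control morulae (log2 fold change 1.45 ± 0.24, adjusted p = 0.0156). Again no split embryo overlapped a control embryo.

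RefSeq promoters of 4 of these genes are shown because Rap1b and Nsmce4a fell and Mrm3 and Psmd4 rose in every split embryo. Each runs for 300 bases, 250 before to 50 after the annotated gene start, in the 5′ to 3′ direction of the gene. Coordinates are those of the GRCm38.p6 build, which is not the GRCm39 build named for the counts. Capitals mark the GC box GGGCGG, the CCAAT box CCAAT and the ETS motif CCGGAAG, each searched on both strands, and none of these 3 motifs overlaps another in its letters here. Rap1b lies at chr10:117845925-117846224, minus strand, Nsmce4a at chr7:130547332-130547631, minus strand, Mrm3 at chr11:76243486-76243785, plus strand and Psmd4 at chr3:95042565-95042864, minus strand.
Rap1b: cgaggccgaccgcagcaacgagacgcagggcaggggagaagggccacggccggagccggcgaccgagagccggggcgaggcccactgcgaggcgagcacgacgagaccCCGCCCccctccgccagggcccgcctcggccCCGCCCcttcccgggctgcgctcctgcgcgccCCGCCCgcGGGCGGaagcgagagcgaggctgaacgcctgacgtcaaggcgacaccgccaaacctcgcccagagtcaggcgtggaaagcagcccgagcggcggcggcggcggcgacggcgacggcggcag
Nsmce4a: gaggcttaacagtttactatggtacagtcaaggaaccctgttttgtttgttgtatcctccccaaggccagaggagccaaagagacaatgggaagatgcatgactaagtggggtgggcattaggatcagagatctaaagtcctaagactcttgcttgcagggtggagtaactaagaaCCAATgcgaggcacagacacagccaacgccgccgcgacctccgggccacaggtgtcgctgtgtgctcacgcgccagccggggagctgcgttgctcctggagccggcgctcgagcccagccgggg
Mrm3: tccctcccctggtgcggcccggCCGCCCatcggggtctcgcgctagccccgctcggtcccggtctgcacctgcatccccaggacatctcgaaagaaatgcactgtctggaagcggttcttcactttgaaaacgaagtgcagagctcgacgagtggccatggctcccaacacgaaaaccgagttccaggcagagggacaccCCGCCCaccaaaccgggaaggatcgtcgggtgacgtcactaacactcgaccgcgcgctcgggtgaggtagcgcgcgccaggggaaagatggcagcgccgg
Psmd4: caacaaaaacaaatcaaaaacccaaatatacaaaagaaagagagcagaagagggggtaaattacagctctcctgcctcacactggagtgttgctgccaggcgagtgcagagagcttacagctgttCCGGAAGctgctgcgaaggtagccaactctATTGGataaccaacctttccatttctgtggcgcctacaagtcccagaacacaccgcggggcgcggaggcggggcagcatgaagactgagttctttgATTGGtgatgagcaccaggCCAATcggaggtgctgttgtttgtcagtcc
The Rap1b promoter held 4 GC boxes, that of Nsmce4a 1 CCAAT box, that of Mrm3 2 GC boxes and that of Psmd4 3 CCAAT boxes and 1 ETS motif.

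Promoters were listed for 17 of the 20 called genes and for 11385 tested genes, the first listed being used where there were several. The ETS motif was in 4 of 8 promoters of genes that rose and in 0 of 9 of genes that fell, and in 17.6% of all. The GC box was in 4 of the 8 and 5 of the 9, and in 60.4% of all. The CCAAT box was in 5 of the 8 and 2 of the 9, and in 39.5% of all. These are counts of letters in a short window and were not tested.

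**Figure D2:**
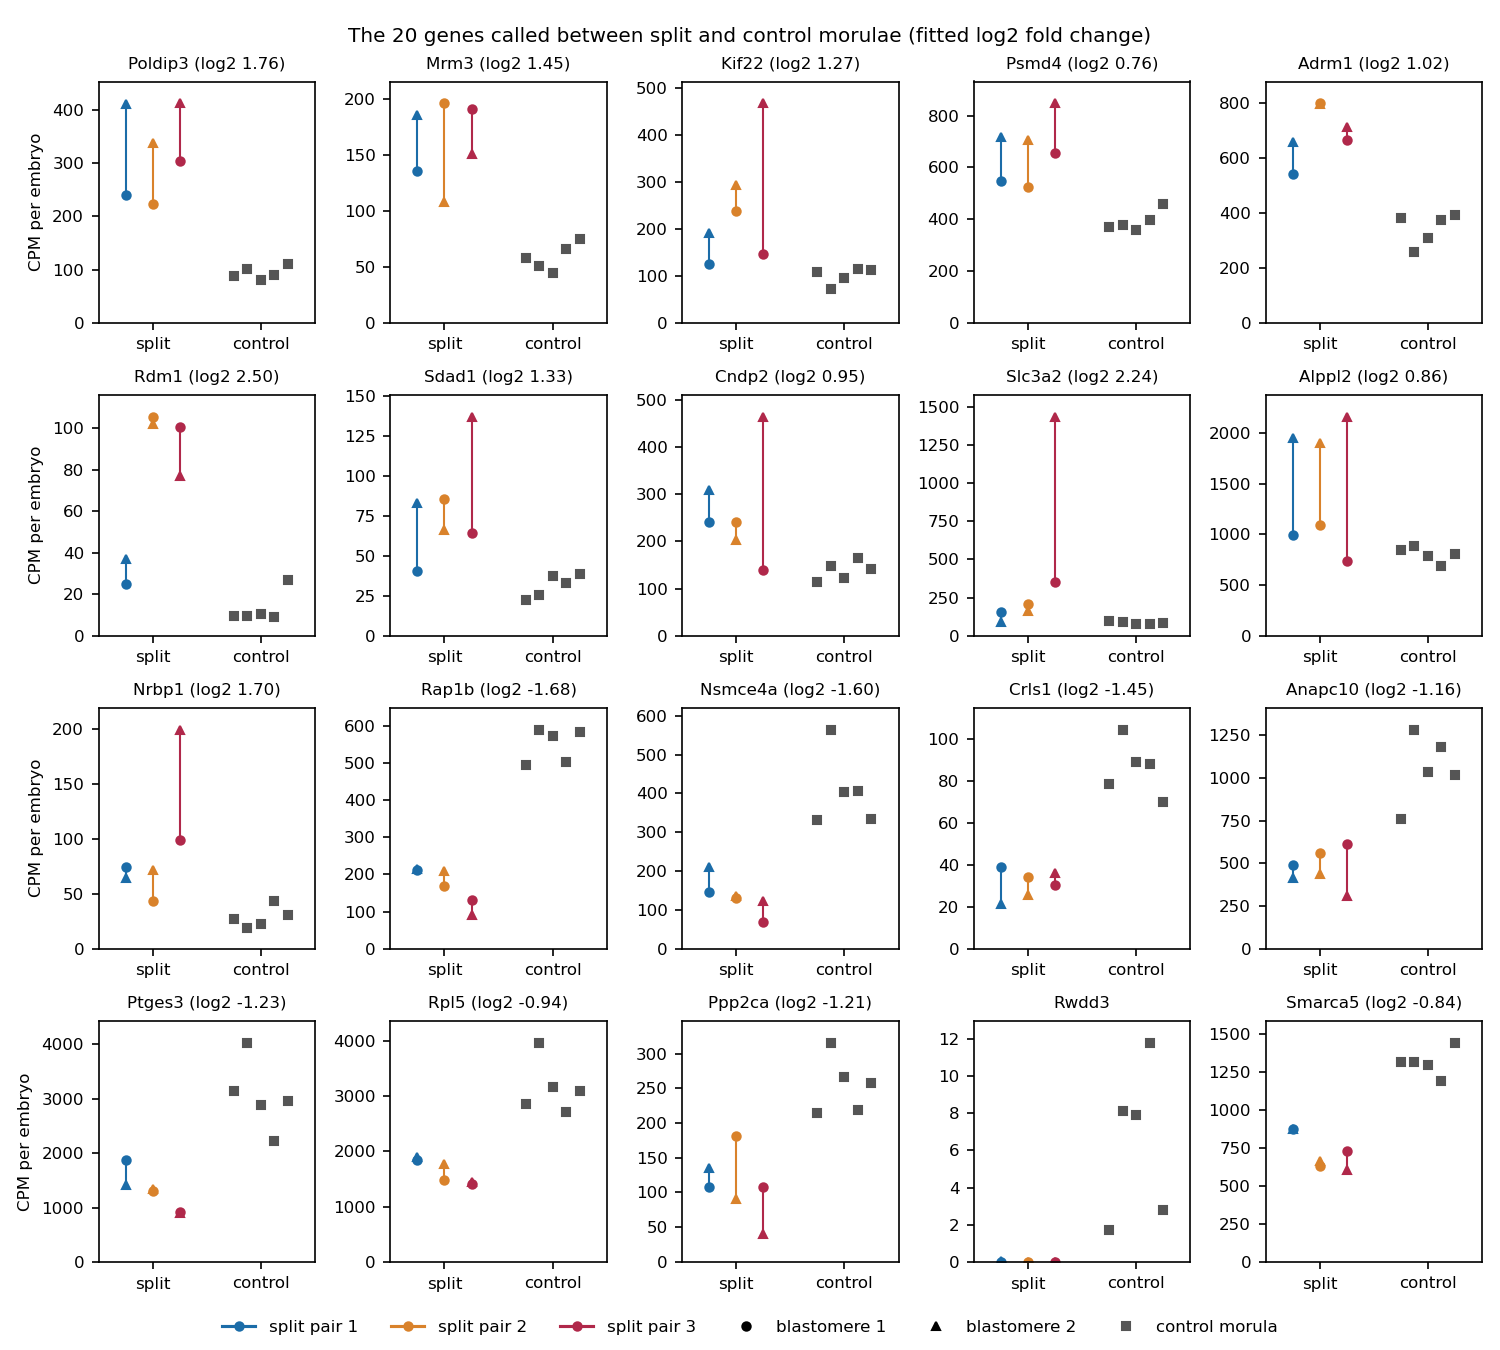
Level of the 20 called genes in each embryo, in CPM on linear axes that start at 0, with split morulae on the left and control morulae on the right; the title of a panel gives the fitted log2 fold change where the split embryos had more than 1 read in all. Colours mark the 3 split pairs, circles and triangles the 2 blastomeres, and lines join sisters; the embryos of the 2 groups overlap for Rdm1, Cndp2, Slc3a2 and Alppl2.

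Of the other genes that rose, 2 encode ubiquitin receptors of the proteasome. Psmd4 (Rpn10) had 524 to 847 CPM (median 681) in split and 358 to 458 CPM (median 377) in control morulae (log2 fold change 0.76 ± 0.14, adjusted p = 0.0344). Adrm1 (Rpn13) had 539.6 to 798 CPM (median 688) in split and 258 to 393 CPM (median 374) in control morulae (log2 fold change 1.02 ± 0.19, adjusted p = 0.0344). For both, all split embryos lay above all controls.

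Kif22, a chromokinesin that moves chromosomes on the spindle, had 125 to 466.3 CPM (median 213) in split and 72.3 to 114 CPM (median 108) in control morulae (log2 fold change 1.27 ± 0.23, adjusted p = 0.0344). Rdm1, a protein with a RAD52-type motif linked to DNA repair, had 25 to 106 CPM (median 88.9) in split and 9.05 to 26.7 CPM (median 9.71) in control morulae, and control morula 5 alone reached into the split range (log2 fold change 2.50 ± 0.47, adjusted p = 0.0344). Sdad1, whose yeast counterpart Sda1 acts in large ribosomal subunit formation, had 40.5 to 137 CPM (median 74.6) in split and 22.5 to 38.5 CPM (median 32.8) in control morulae (log2 fold change 1.33 ± 0.26, adjusted p = 0.0431). Kif22 and Sdad1 did not overlap between the groups.

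Slc3a2 encodes the heavy chain shared by several amino acid transporters. It had 154 and 91.6 CPM in split pair 1, 205 and 159 CPM in split pair 2 and 353 and 1438 CPM in split pair 3, against 98.2, 92.1, 79.2, 73.5 and 82.5 CPM in the 5 control morulae (log2 fold change 2.24 ± 0.43, adjusted p = 0.0459). The size of this change came largely from pair 3, and without it the log2 fold change was 0.86 (adjusted p = 0.411). Nrbp1, a pseudokinase adaptor, had its 2 highest values in pair 3 as well, with 43.1 to 199 CPM (median 73.1) in split and 18.5 to 43.1 CPM (median 26.6) in control morulae (log2 fold change 1.70 ± 0.34, adjusted p = 0.0459), and a log2 fold change of 1.17 without that pair (adjusted p = 0.331). Cndp2, a cytosolic dipeptidase, had 139.7 to 465 CPM (median 241) in split and 113 to 165 CPM (median 142) in control morulae (log2 fold change 0.95 ± 0.19, adjusted p = 0.0459). Alppl2, an alkaline phosphatase of the early embryo, had 734 to 2161 CPM (median 1494) in split and 691 to 888 CPM (median 802) in control morulae (log2 fold change 0.86 ± 0.17, adjusted p = 0.0459), with blastomere 2 above blastomere 1 in all 3 pairs.

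Anapc10, a subunit of the anaphase-promoting complex that helps it bind substrates, fell, with 311 to 614 CPM (median 465) in split and 759 to 1282 CPM (median 1033) in control morulae (log2 fold change -1.16 ± 0.20, adjusted p = 0.0246). Ptges3 encodes p23, a co-chaperone that stabilises Hsp90 on its clients, and had 897 to 1877 CPM (median 1329) in split and 2218 to 4029.7 CPM (median 2961) in control morulae (log2 fold change -1.23 ± 0.22, adjusted p = 0.0246). Rpl5, a large-subunit protein that carries the 5S RNA, had 1415 to 1905 CPM (median 1626) in split and 2712 to 3961 CPM (median 3095) in control morulae (log2 fold change -0.94 ± 0.17, adjusted p = 0.0246). None of these genes overlapped between the groups.

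Ppp2ca, the catalytic subunit of protein phosphatase 2A, had 39.7 to 181 CPM (median 108) in split and 214 to 316 CPM (median 258) in control morulae (log2 fold change -1.21 ± 0.23, adjusted p = 0.0344). Smarca5, the ATPase of ISWI chromatin remodellers, had 604 to 879 CPM (median 700.4) in split and 1192 to 1445 CPM (median 1316) in control morulae (log2 fold change -0.84 ± 0.17, adjusted p = 0.0459). Rwdd3, which promotes sumoylation, gave 1 read over all 6 split morulae and 488 reads over the 5 control morulae (adjusted p = 0.0459). The ratio of its pooled levels, split over control, was 0.00172, with a 95% exact interval of 4.34e-05 to 0.00962 that covers counting error only. Its control levels were themselves uneven, at 1.69, 8.14, 7.9, 11.8 and 2.8 CPM.

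At the blastocyst stage, 752 genes (4.74%) were called between split and control embryos in the same fit. Of the 20 genes, 18 had the same direction there and 10 were called. The share of all genes that kept their direction is not given here, so the 18 have no background to be read against. Testing whether the split effect differed between morula and blastocyst gave calls at 260 genes (1.64%), 5 of them among the 20. The 20 had been chosen by the morula difference that enters this test, which favours such calls. Poldip3 differed less in blastocysts, with 185 CPM in split and 128 CPM in control blastocysts (morula minus blastocyst 1.23, adjusted p = 0.046). Rpl5 fell in split morulae and had 2068 CPM in split and 1629 CPM in control blastocysts (morula minus blastocyst -1.29, adjusted p = 0.00798). Anapc10 had 269 CPM in split and 244 CPM in control blastocysts (morula minus blastocyst -1.30, adjusted p = 0.0242). Adrm1 differed more in blastocysts, with 641 CPM in split and 141 CPM in control blastocysts (morula minus blastocyst -1.17, adjusted p = 0.0436). The fifth, Rwdd3, had 4.65 CPM in split and 6.9 CPM in control blastocysts (adjusted p of the difference = 0.0369). Nsmce4a, Crls1, Mrm3, Ptges3, Kif22 and Ppp2ca had log2 fold changes of -1.28, -1.30, 1.44, -1.49, 1.42 and -1.33 in blastocysts, and all were called there.

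The partners of the called genes were examined through lists of their complexes and pathways. Counts below are of members at an unadjusted p under 0.05, to be read against 7.32% higher and 7.65% lower over all tested genes, whose median log2 fold change was 0. These are descriptions of the lists and not tests of them.

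The proteasome list did not move as 1 group, and its median relative to all genes turned to 0.18 under limma-voom. Of 35 members, 5 were higher and 11 lower, with a median log2 fold change of -0.15. All 7 alpha subunits of the core were lower in split morulae, 6 of them past the threshold, with a median of -0.47; Psma3 had 652 ± 97.1 CPM in split and 1037 ± 50.2 CPM in control morulae (log2 -0.67 ± 0.16, unadjusted p = 0.000496). The 5 higher members were all of the regulatory cap, namely Psmd2, Psmd3, Psmd4, Psmd13 and Adrm1. Psmd13 had 200.1 to 268 CPM (median 239) in split and 76 to 128 CPM (median 102) in control morulae without overlap, and its adjusted p was 0.0512. Among 12 non-ATPase and receptor members, 5 were higher and 1 lower, with a median of 0.06. Without pair 3, 5 members were higher and 5 lower.

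The ribosomal protein lists had medians below 0 and the ribosome biogenesis list a median above 0, and of their members only Rpl5 and Sdad1 were called. Under limma-voom, where the median of all genes was -0.36, the large-subunit median relative to all genes was 0.095. Of 33 small-subunit genes, 18 were lower and 0 higher (median log2 -0.36), and of 49 large-subunit genes, 14 were lower and 0 higher (median -0.27). Beside Rpl5, examples were Rpl30, with 188 to 248 CPM (median 217) in split and 325 to 463 CPM (median 424) in control morulae (log2 -0.88 ± 0.18, unadjusted p = 9.17e-05), and Rps15a, with 360.1 to 441 CPM (median 390.2) in split and 522 to 726 CPM (median 542) in control morulae (log2 -0.56 ± 0.15, unadjusted p = 0.00114). Ribosomal protein genes took 5.79% ± 0.179 of counts in split and 6.51% ± 0.318 in control morulae (SD, n = 3 pairs and 5 embryos; exact permutation p = 0.0357, the smallest this design allows; 0.0476 adjusted over 4 measures). Single embryos overlapped in this share, with blastomere 2 of split pair 1 at 6.18% and control morula 1 at 6.12%. Of 40 ribosome biogenesis genes, 15 were higher and 2 lower (median 0.42). Bop1, which acts in large-subunit rRNA maturation, had 19.95 to 55.2 CPM (median 44.5) in split and 5.15 to 21.9 CPM (median 14.3) in control morulae (log2 1.52 ± 0.44, unadjusted p = 0.00252), and the nucleolar scaffold Nolc1 had 246 to 679 CPM (median 359) in split and 198 to 295 CPM (median 227) in control morulae (log2 0.82 ± 0.23, unadjusted p = 0.00149). The 2 lower members were the abundant nucleolar genes Npm1 and Nop58, Npm1 with 2152 ± 292 CPM in split and 3219 ± 311 CPM in control morulae. Without pair 3, 13 small-subunit and 9 large-subunit genes were lower, 0 of either were higher, and 11 biogenesis genes were higher and 3 lower. Reads of ribosomal protein genes may be shared with processed copies, so single members are uncertain.

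Level and length moved with these lists. Among 144 genes with a mean of at least 1000 CPM, 57 were lower and 6 higher in split morulae (median log2 -0.25). Among 4826 genes of 10 to 100 CPM, 191 were lower and 406 higher (median 0.13). Over 3791 genes with the shortest transcripts, by the length implied by TPM and counts, the median was -0.12, and over 3790 genes of the third of 4 length classes it was 0.11. It was 0.06 in the second class and 0.03 in the class of longest transcripts, so the medians were not ordered by length. The part of level and length in the list counts was not tested.

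Lists of respiratory chain genes from both genomes had medians below 0 in split morulae, with 0 members called, and the nuclear lists turned relative to all genes under limma-voom (0.0546 for complex I and 0.0607 for complexes III to V). All 13 mitochondrially encoded genes were lower in split morulae, 7 of them past the threshold, with a median of -0.81. Complex I subunit mt-Nd1 had 3031 and 3028 CPM in split pair 1, 2966 and 2519.5 CPM in split pair 2 and 2042 and 1727 CPM in split pair 3, against 3897, 4998, 5659, 5817 and 4155 CPM in the 5 control morulae (log2 -0.94 ± 0.24, unadjusted p = 0.000708), without overlap. The mitochondrially encoded share of counts was 2.59% ± 0.263 in split and 3.99% ± 0.852 in control morulae (SD, n = 3 pairs and 5 embryos; exact permutation p = 0.0714), with control morula 5, at 2.70%, inside the split range of 1.81% to 3.19%. Of 37 nuclear genes of complex I, 12 were lower and 1 higher (median -0.28). Ndufs5 had 159 to 262 CPM (median 243) in split and 297 to 473 CPM (median 365) in control morulae without overlap (log2 -0.67 ± 0.18, unadjusted p = 0.000947), while Ndufv1, the flavoprotein that receives electrons from NADH, was the higher one, with 63.2 to 226 CPM (median 116) in split and 47.4 to 95 CPM (median 62.6) in control morulae (log2 1.00 ± 0.29, unadjusted p = 0.00254). Of 36 nuclear genes of complexes III to V, 7 were lower and 3 higher (median -0.28). The complex III core subunit Uqcrc1 was among the higher, with 757 to 1097 CPM (median 998) in split and 446 to 681 CPM (median 548) in control morulae, and Uqcrb of the same complex among the lower, with 213 to 411 CPM (median 294) in split and 464 to 683 CPM (median 589.7) in control morulae. Without pair 3 the counts were 4 of 13 lower for the mitochondrial genome, 7 lower and 1 higher for complex I, and 5 lower and 1 higher for complexes III to V.

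Crls1 was the 1 member of 12 cardiolipin genes past the threshold, and the median of the list was 0.11. Mrm3 was 1 of 2 higher members among 17 genes of mitochondrial rRNA modification and ribosome assembly, where the helicase Dhx30 was the 1 lower member, with 28.4 to 52.8 CPM (median 48.9) in split and 47.9 to 114 CPM (median 72.1) in control morulae. That list's median was 0.38, and -0.11 without pair 3. Poldip3 was 1 of 3 higher members among 20 genes of mRNA export, while Sarnp and Thoc7 were lower. Sarnp, an export factor that binds the helicase Ddx39b, had 90.7 to 252 CPM (median 158) in split and 289.7 to 334 CPM (median 300.4) in control morulae (log2 -0.95 ± 0.22, unadjusted p = 0.000252). Thoc7, a core THO subunit, had 68.6 to 110.0 CPM (median 78.7) in split and 146 to 159.6 CPM (median 154) in control morulae (log2 -0.83 ± 0.23, unadjusted p = 0.00185). Both were without overlap, in the direction opposite to Poldip3.

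Rap1b was 1 of 2 lower members among 27 genes of Rap1 signalling and integrin adhesion, with 0 higher and a median of -0.01. Nsmce4a and Palb2 were the 2 lower of 18 genes of SMC5/6 and recombination, Rdm1 was 1 of the 2 higher, and the median was 0.04. Of 20 protein phosphatase 2A genes, Ppp2ca and the regulatory subunit Ppp2r2d were lower and Ppp2r5d higher. Ppp2r2d had 20.4 to 46.8 CPM (median 37.6) in split and 70.3 to 143 CPM (median 83.5) in control morulae without overlap (log2 -1.38 ± 0.30, unadjusted p = 0.000125). Of 19 genes of the anaphase-promoting complex, Anapc10 was the 1 lower and 3 were higher, among them its activator Cdc20, with 459 to 1272 CPM (median 795) in split and 277 to 556 CPM (median 489) in control morulae (log2 0.86 ± 0.23, unadjusted p = 0.000982, and 0.56 without pair 3). Without that pair the list had 1 higher and 1 lower. Of 21 remodeller genes, 3 were higher and 3 lower, and 1 higher and 2 lower without pair 3. Smarca4, the ATPase of BAF complexes, had 38.9 to 84.1 CPM (median 74.9) in split and 27.4 to 48.4 CPM (median 39.6) in control morulae (log2 0.90 ± 0.24, unadjusted p = 0.00117), opposite to Smarca5.

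Among 29 genes of Hsp90 and its partners, 8 were higher and 5 lower, with a median of 0.48 and of 0.40 without pair 3. The co-chaperone Stip1, which passes clients from Hsp70 to Hsp90, had 1455 to 4135 CPM (median 1799) in split and 797 to 1368 CPM (median 1164) in control morulae (log2 0.91 ± 0.22, unadjusted p = 0.000378, and 0.59 without pair 3). Hspb1, a small heat shock protein, had 72.7 and 31.8 CPM in split pair 1, 30.3 and 64.7 CPM in split pair 2 and 70.8 and 662 CPM in split pair 3, against 15.5, 13.7, 22, 26.5 and 41.2 CPM in the 5 control morulae, and its log2 fold change of 2.71 ± 0.64 was 1.10 without pair 3. Hsp90aa1 was on the lower side with Ptges3, at 6940.2 ± 2569 CPM in split and 10132 ± 852 CPM in control morulae (log2 -0.55 ± 0.20, unadjusted p = 0.0135).

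Of 39 mitosis genes, 8 were higher and 1 lower, with a median of 0.03, and 8 were higher and 3 lower without pair 3. Espl1, the separase that opens cohesin at anaphase, had 17.5 to 50.8 CPM (median 30) in split and 4.89 to 15.2 CPM (median 8.04) in control morulae without overlap (log2 1.87 ± 0.41, unadjusted p = 0.000184), and the kinase Plk1 had 53.1 to 154 CPM (median 95.1) in split and 30.9 to 53.1 CPM (median 47.7) in control morulae (log2 1.09 ± 0.29, unadjusted p = 0.00103). Of 43 replication genes, 7 were higher and 1 lower, with and without pair 3. The 1 lower member was the sliding clamp Pcna, with 76.8 to 153 CPM (median 105) in split and 161 to 304 CPM (median 196) in control morulae without overlap (log2 -0.95 ± 0.25, unadjusted p = 0.00106). The helicase subunit Mcm7 was among the higher, with 38.8 to 178 CPM (median 83.7) in split and 33.4 to 53.4 CPM (median 45.6) in control morulae (log2 1.03 ± 0.28, unadjusted p = 0.0013).

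The list of p53 and its targets had the highest median of the pathway and lineage lists with at least 8 tested members, 1.37 over 30 genes, with 10 higher and 1 lower. The value came from pair 3. Without it the median was 0.32, with 2 higher and 0 lower. The median deviation of the members of the list from the mean of the controls was 0.10 and 0.01 on the log2 scale in the sisters of pair 1, 0.19 and 0.46 in pair 2, and 0.72 and 3.35 in pair 3, against -0.31 to 0.66 in control morulae. So 1 embryo, blastomere 2 of pair 3, lay far above the rest, its sister was just above the highest control, and the 4 embryos of pairs 1 and 2 were within the control range. Cdkn1a, the cell cycle inhibitor p21, had 128 and 98 CPM in split pair 1, 192 and 94.1 CPM in split pair 2 and 259.8 and 539 CPM in split pair 3, against 127, 57.6, 82.2, 146 and 36.9 CPM in the 5 control morulae, and its log2 fold change of 1.29 ± 0.46 was 0.53 without pair 3 (unadjusted p = 0.272). Ei24 and Plk3 were higher in both fits. Plk3, a stress-responsive kinase, had 16.2 to 52.2 CPM (median 27.2) in split and 0 to 12.2 CPM (median 5.16) in control morulae without overlap (log2 2.48 ± 0.92, unadjusted p = 0.0133). Of 25 genes of the Bcl2 family and caspases, 2 were higher and 0 lower, and 1 was higher without pair 3.

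**Figure D3:**
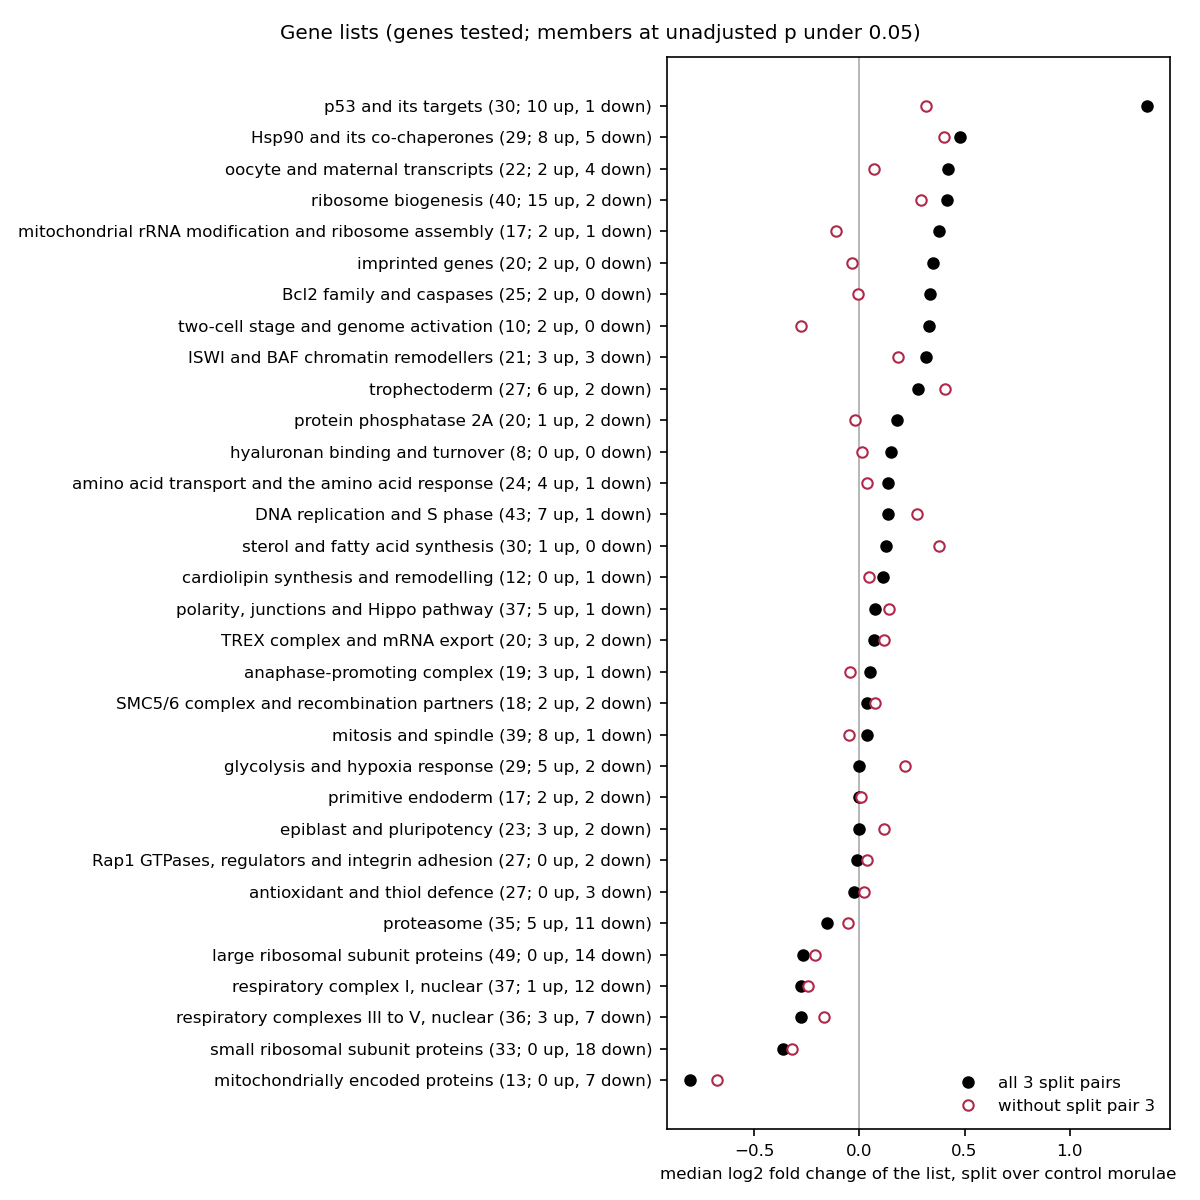
Median log2 fold change, split over control morulae, of gene lists with at least 8 tested members, filled with all 3 split pairs and open without pair 3; the label of each list gives its number of tested genes and how many were higher or lower at an unadjusted p under 0.05. The p53 list moved the most when pair 3 was left out. The ribosomal protein, mitochondrially encoded and respiratory complex lists stayed below 0 in both of these edgeR fits. Under limma-voom, not all of them were below the median of all genes, which was -0.36 there.

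The trophectoderm, junction and primitive endoderm lists separated pair 3 from the other pairs, and the epiblast list did not. Of 27 trophectoderm genes, 6 were higher and 2 lower. The median deviation of the list from the control mean was 0.53 and 0.43 in pair 1, 0.31 and 0.48 in pair 2, and -0.14 and -0.64 in pair 3, against -0.14 to 0.0038 in control morulae. All 4 embryos of pairs 1 and 2 were thus above every control morula, and pair 3 was at or under the lowest. Without pair 3, Gata3 had a log2 fold change of 1.13 (unadjusted p = 0.0235) and Cdx2 of 3.76 (unadjusted p = 0.0128), and neither was called. Tfap2c, which acts with Tead4 upstream of the trophectoderm genes, had 72.5 to 148 CPM (median 107) in split and 38.5 to 97.9 CPM (median 54.1) in control morulae (log2 0.91 ± 0.35, unadjusted p = 0.0153). Tead4 itself was highest in pair 3, with 38 and 28.1 CPM in split pair 1, 103 and 65.3 CPM in split pair 2 and 101 and 214 CPM in split pair 3, against 53.5, 56.6, 29.5, 42.1 and 41.9 CPM in the 5 control morulae, and its log2 fold change of 1.04 ± 0.34 was 0.41 without pair 3. The junction and Hippo list of 37 genes had 5 higher and 1 lower, and 3 higher and 1 lower without pair 3. Its median deviation was -0.07 to 0.51 in pairs 1 and 2 and -0.51 and -0.60 in pair 3. In control morulae it was -0.05 to 0.23. For the primitive endoderm list the median deviation was -0.24 to 0.23 in pairs 1 and 2 and -1.13 and -1.04 in pair 3. Control morulae had -0.22 to 0.14, and only 7 genes of this list had a mean of at least 10 CPM. For the epiblast list the median deviation was -0.40 and 0.46 in pair 1, 0.02 and -0.60 in pair 2, and 0.32 and 0.48 in pair 3, against -0.19 to 0.07 in control morulae.

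Pou5f1, the Oct4 gene, was higher in split morulae, with 31.5 to 96.1 CPM (median 55.1) in split and 7.43 to 21.3 CPM (median 18.2) in control morulae, without overlap (log2 1.85 ± 0.63, unadjusted p = 0.00782, adjusted p = 0.227). The 23 epiblast and pluripotency genes had 3 higher and 2 lower members and a median of 0.00, with 1 higher and 2 lower without pair 3. Dppa3, a maternal factor that protects the egg-derived genome from demethylation, had 7891 and 6992 CPM in split pair 1, 8845 and 6811 CPM in split pair 2 and 14189.6 and 6807 CPM in split pair 3, against 10292, 12704, 11582, 11104 and 11392 CPM in the 5 control morulae (log2 -0.41 ± 0.17, unadjusted p = 0.0267). Blastomere 1 of pair 3 was the highest of the 11 embryos and the 5 other split morulae were under every control, and without pair 3 the log2 fold change was -0.57. Dppa3 was not called between split and control morulae, but its split effect differed between morula and blastocyst (-1.22, adjusted p = 0.0155), with 5568 CPM in split and 3173 CPM in control blastocysts. Of 17 tested primitive endoderm genes, 2 were higher and 2 lower, and Sox17, Sox7 and Foxa2 had no count in any of the 11 embryos. Gata6, which specifies that lineage, had 55.8 to 172 CPM (median 122.6) in split and 109 to 149 CPM (median 113) in control morulae.

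Of 29 glycolysis genes, 5 were higher and 2 lower, and the median was 0.00. Eno1 had 29.2 to 124 CPM (median 89.2) in split and 33.6 to 52.2 CPM (median 40.2) in control morulae (log2 1.05 ± 0.33, unadjusted p = 0.00415), but its reads may be shared with the near-identical Eno1b. Hif1a, the hypoxia factor, was lower, with 9.26 to 19.5 CPM (median 16.9) in split and 24.7 to 53.8 CPM (median 30.2) in control morulae without overlap (log2 -1.17 ± 0.39, unadjusted p = 0.00632). Antioxidant genes had 0 higher and 3 lower of 27, with Sod2 of the mitochondrial matrix at 201 to 664 CPM (median 499.6) in split and 673 to 916 CPM (median 752) in control morulae (log2 -0.72 ± 0.20, unadjusted p = 0.00181, and -0.45 without pair 3) and thioredoxin Txn1 at 184 to 424 CPM (median 256) in split and 363 to 476 CPM (median 466.1) in control morulae. Of 24 amino acid genes, 4 were higher and 1 lower. Phgdh, which opens serine synthesis, had 69.4 to 317 CPM (median 99.4) in split and 36.4 to 70.4 CPM (median 48.3) in control morulae (log2 1.39 ± 0.34, unadjusted p = 0.000477). Of 30 sterol and fatty acid genes, 1 was higher and 0 lower, namely the sterol enzyme Sqle, with 72.2 to 241 CPM (median 107) in split and 27.8 to 81.7 CPM (median 58.7) in control morulae. The hyaluronan list, which bears on the culture gel, had 0 of 8 past the threshold in either direction, and 7 further members, Cd44 and Has2 among them, had no count in any of the 11 embryos. Of 20 imprinted genes, 2 were higher and 0 lower, and Snrpn had 189 to 467 CPM (median 270.2) in split and 143 to 219 CPM (median 189.6) in control morulae (log2 0.75 ± 0.22, unadjusted p = 0.00234). Without pair 3 the imprinted list had 1 higher and 1 lower. The maternal list of 22 genes had 2 higher and 4 lower members, and 0 higher and 1 lower without pair 3. The two-cell stage list of 10 had 2 higher and 0 lower with a median of 0.33, and 1 higher with a median of -0.28 without pair 3.

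Split morulae held fewer detected genes, and the part of the RNA amount per library in this was not tested. With every library thinned to 13.9 M counts, 11104 ± 26.1 genes had at least 1 count in split and 12913 ± 318 in control morulae (SD, n = 3 pairs and 5 embryos). All 6 split embryos, at 10225 to 12037, lay under all 5 controls, at 12521 to 13385. The exact two-sided permutation p was 0.0357, the smallest that 3 pairs and 5 embryos allow, and 0.0476 adjusted over 4 measures. The sisters of pair 3 were the lowest and the highest split embryos. The 100 most abundant genes took 28.0% ± 1.53 of counts in split and 31.6% ± 1.18 in control morulae (exact permutation p = 0.0357, 0.0476 adjusted).

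**Figure D4:**
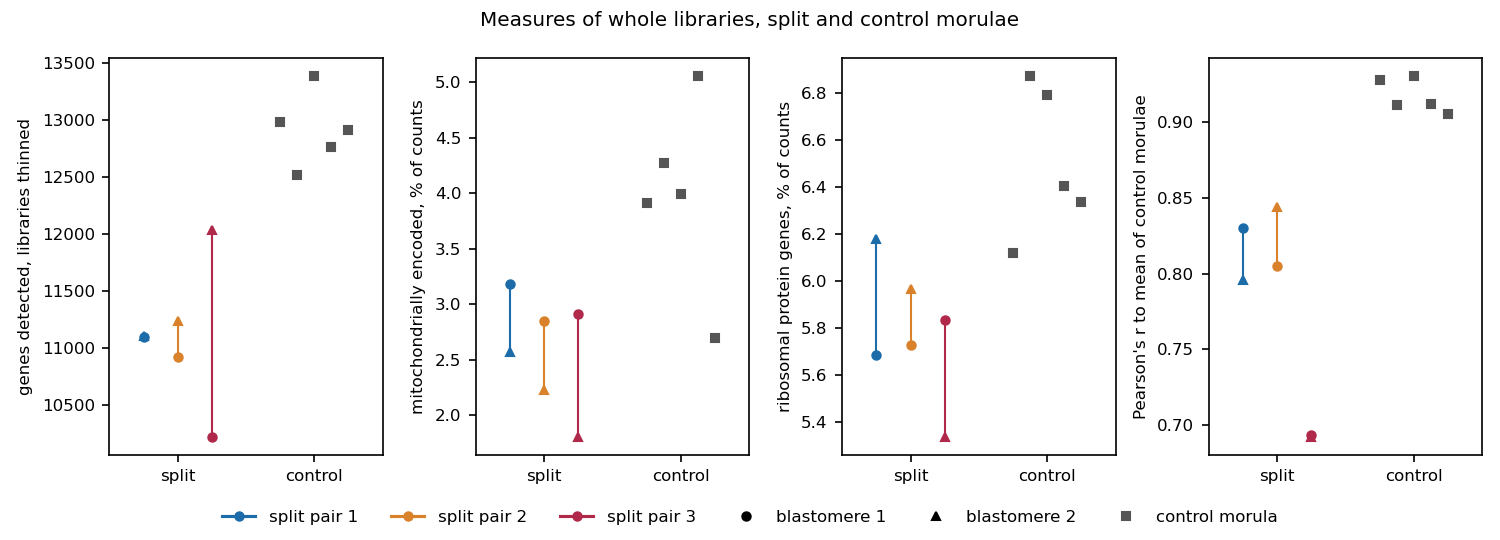
Genes detected after thinning to 13.9 M counts, mitochondrially encoded and ribosomal protein shares of counts in %, and Pearson's r to the mean of the control morulae (over the others for a control), in each split morula (left) and control morula (right); axes do not start at 0. Colours mark the 3 pairs and lines join sisters; the split embryos lie under all controls for detected genes and for r, with pair 3 lowest for r.

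Genes at 0 in all embryos of 1 group were few and thinly read. With a mean of at least 5 CPM in the other group, 3 genes were at 0 in every split morula and 14 in every control morula. Nat1, an N-acetyltransferase, had no count in 6 split morulae and 14.6, 13.2, 5.85, 23.1 and 8.73 CPM in the 5 control morulae. Against a floor of 3 counts over the 6 split embryos it was at least 412-fold lower. Nat1 was picked for its 0 counts and was not called by edgeR's test (adjusted p = 0.126). Tmem171 was at 0 in split morulae and at 2.56, 2.21, 15.4, 5.86 and 0.0571 CPM in the 5 control morulae. Of the genes at 0 in control morulae, Phyhipl, Ccr8, Obox8, Asb12 and Mlana had reads in pair 3 only. Rhcg, an ammonium channel, had 0.0577 and 15.6 CPM in split pair 1, 0 and 0 CPM in split pair 2 and 26.6 and 6.74 CPM in split pair 3 and none in controls, at least 221-fold higher against a floor of 3 counts over the 5 control embryos. Rhcg was picked in the same way and was not called by edgeR's test (adjusted p = 0.0793).

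Split morulae varied more among themselves than control morulae did. The median SD of log2 CPM over single embryos was 0.75 in split and 0.44 in control morulae, and 82.0% of the 6759 genes had the higher SD in split morulae. Without pair 3, a comparison chosen after its values were seen, the median SD was 0.56 in split morulae and 64.9% of genes were more variable there. By level, the median SD was 1.38 in split and 0.69 in control morulae for genes of 10 to 30 CPM, and 0.35 in split and 0.21 in control morulae above 300 CPM. Among the lists, the ribosomal protein genes varied the least in split morulae, with a median SD of 0.21 in split and 0.16 in control morulae for the small subunit. The p53 list had 1.55 in split and 0.88 in control morulae, and the trophectoderm list 1.17 in split and 0.42 in control morulae. The 6 split embryos hold 3 origins, so the spread was not tested. A split morula grew from 1 blastomere, and the labels give no cell number. The part of the RNA amount per library in the spread and in the r values was not tested.

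Sisters were more alike than most split embryos of different origin. Over the same genes, Pearson's r was 0.743, 0.750 and 0.661 between the sisters of pairs 1, 2 and 3. Between split morulae of different pairs it was 0.575 to 0.739, with a median of 0.619 over 12 combinations. Of these, the 8 that include pair 3 had 0.575 to 0.661, and the 4 between pairs 1 and 2 had 0.688 to 0.739. So the sisters of pairs 1 and 2 exceeded the embryos of the other pair by a small margin. Split and control morulae had 0.624 to 0.812, with a median of 0.762 and, without pair 3, of 0.773. Control morulae had 0.852 to 0.889 with each other, above every value that involves a split embryo, sisters included. These r values share genes, depth and method and are given as description.

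The median absolute difference in log2 CPM between sisters was 0.56, 0.53 and 0.78 in pairs 1, 2 and 3, against 0.80 between split morulae of different pairs and 0.43 between control morulae. A difference over 2 on this scale was found for 11.8%, 10.5% and 18.4% of genes in the 3 sister pairs, and for 4.81% of genes between control morulae. Genes that differed most between sisters were of low level. Tspan6, a tetraspanin, had 26.8 and 0 CPM in split pair 1, 0 and 51.1 CPM in split pair 2 and 0 and 6.27 CPM in split pair 3, against 4.66, 6.97, 4.02, 14.2 and 14 CPM in the 5 control morulae. Sdc1, syndecan-1 of the cell surface, had 0.0577 and 10.3 CPM in split pair 1, 0 and 19.7 CPM in split pair 2 and 0.0589 and 71.1 CPM in split pair 3, against 1.05, 0.521, 0.607, 2.54 and 6.05 CPM in the 5 control morulae. For Tspan6 the higher sister was blastomere 1 in pair 1 and blastomere 2 in the others, while for Sdc1 it was blastomere 2 in all 3 pairs.

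**Figure D5:**
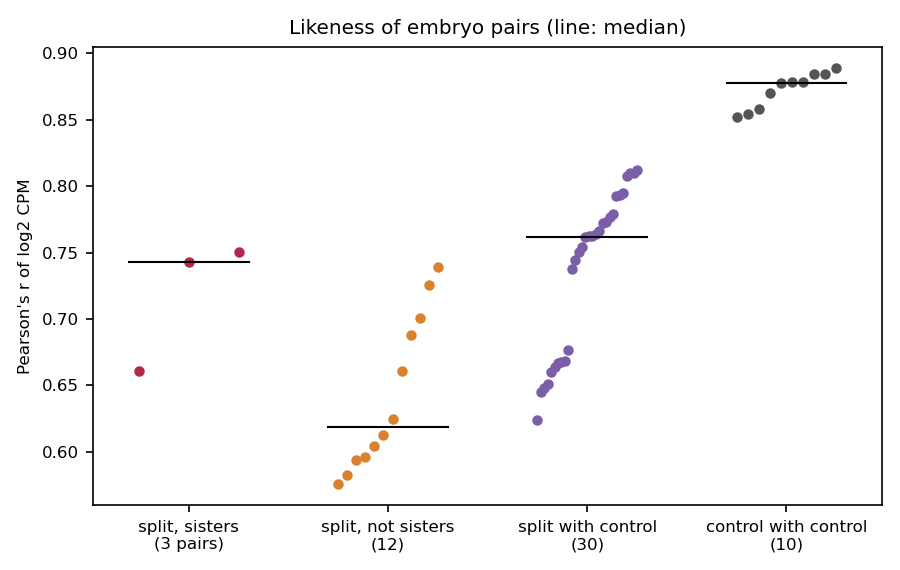
Pearson's r of log2 CPM over 6759 genes for every pair of embryos, from left to right between sisters, between split morulae of different origin, between split and control morulae, and between control morulae; the line is the median. Control morulae lie at 0.852 to 0.889, above all other combinations, and the low group under 0.68 of the split and control combinations holds those with pair 3.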

How the data were processed

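The authors deposited raw read counts of 37229 gene symbols and TPM values of 15625 genes. Per the submitters' processing notes, the tools were cutadapt, HISAT2, featureCounts, edgeR, FastQC and MultiQC, and the build was GRCm39; versions, annotation and strand setting are not given in the sources used here, so overlapping, antisense and near-identical genes are uncertain. Counts of sisters were summed, giving 18 units in 5 groups. Genes kept by filterByExpr (15875) were scaled by TMM and tested with edgeR 4.0.16 (R 4.3.3), two-sided, with Benjamini-Hochberg adjustment; SE is the log2 fold change over the root of F. The test was tried on simulated data. CPM per embryo uses the same scaling, and log2 CPM a prior count of 2. Embryo measures used exact permutation tests over pair means. Reads are not counted by molecule, so floors and intervals hold counting error alone. Alternatives were DESeq2 1.42.0, limma 3.58.1, filters, scalings and left-out embryos. Members and gene lists were chosen with earlier results of these data known; named genes were all called genes, a lineage panel, up to 3 members per list by p, genes at 0 in 1 group, near misses, and genes of extreme spread, with others named as examples after their values were seen. The labels do not say whether equal replicate numbers of split pairs and controls mark a shared origin. The r of their deviations was -0.08, 0.02 and -0.03. Such low values cannot exclude it, since the correlation between sister morulae, estimated by limma, was itself only 0.13. In the lists, 16 symbols were matched through older names.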

Additional observations from a re-analysis of the deposited data

Results flagged for a closer look

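In 80 groups of single-embryo values that were examined, 8 held 1 embryo far from the rest. The chance rate of about 1 in 20 is for independent values. Sisters are not independent, so 8 of 80 is not read as an excess. In split morulae, blastomere 2 of pair 3 stood above the others for Slc3a2 (1438 CPM, others 91.6 to 353), Nrbp1 (199 CPM, others 43.1 to 98.5) and Cdkn1a (539 CPM, others 94.1 to 259.8), and blastomere 1 of pair 3 for Dppa3 (14190 CPM, others 6807 to 8845). In control morulae, embryo 5 stood above the others for Rdm1 (26.7 CPM, others 9.05 to 10.3) and Xist (146 CPM, others 0.0583 to 4.89), and embryo 4 for Klf2 (39.1 CPM, others 8.45 to 14.0) and Eomes (9.25 CPM, others 0.152 to 1.63). Y-linked genes summed to 0 CPM in control morula 5 and to 144 to 274 CPM in the other control morulae, so its Xist value goes with its sex.

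The split effect differed between morulae and blastocysts, as morula minus blastocyst on the log2 scale by edgeR's test of the difference, for Poldip3 (1.23, adjusted p = 0.0460), Anapc10 (-1.30, adjusted p = 0.0242), Rpl5 (-1.29, adjusted p = 0.00798), Adrm1 (-1.17, adjusted p = 0.0436), Dppa3 (-1.22, adjusted p = 0.0155), Sarnp (-1.44, adjusted p = 0.0227), Smarca4 (1.54, adjusted p = 0.0333), Rps3 (-1.11, adjusted p = 0.00953), Rps25 (-0.84, adjusted p = 0.0322), Uqcrc1 (-1.45, adjusted p = 0.0179), Fdft1 (-2.34, adjusted p = 0.00953), Idi1 (-3.01, adjusted p = 0.0109), Espl1 (2.86, adjusted p = 0.0231), Pcna (-1.81, adjusted p = 0.0124), Sod2 (-1.50, adjusted p = 0.0114) and Txn1 (-1.49, adjusted p = 0.0107). Of these, Dppa3, Rps3, Idi1, Sod2 and Txn1 had a higher level in split than in control blastocysts with a call there, and a lower mean in split than in control morulae. Fitted differences for Rwdd3 (-8.19, adjusted p = 0.0369), Htra1 (-9.20, adjusted p = 0.023) and Rhcg (16.48, adjusted p = 0.0258) rest on groups at 0 or with 1 read and are no measure of size. Many of the genes named here had been picked for their difference between the morula groups, which enters this test and favours such calls.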

How the results depend on the processing

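The 20 calls became 678 with DESeq2 (all 20 shared), 191 with each split embryo as its own sample, 177 with limma-voom and origin as a random effect (13 shared), 50 with genes of at least 10 CPM, 69 with no low-count filter, 39 with limma on log2(TPM + 1) and 32 on log2(TPM + 0.1), 48 with blastomere 1 only, and 208 with blastomere 2 only. With only the 2 morula groups in the fit there were 4 calls, and only 2 of the 20 were among them, Poldip3 and Rap1b. The share that rose was 55.0% in the main result, 40.1% with DESeq2, 10.7% with limma-voom (median of all genes -0.36) and 76.9% with TPM + 1. The replicate block, which paired split and control morulae by replicate number, gave 0 calls (881 genes at an unadjusted p under 0.05). The labels do not say whether these numbers pair the embryos. Leaving out 1 pair or control gave 4 to 51 calls. Adrm1, Anapc10, Crls1, Mrm3, Nsmce4a, Poldip3, Psmd4, Ptges3, Rap1b and Rpl5 were called by edgeR, DESeq2, limma-voom and limma on TPM. The 20 genes kept their direction in all 439 combinations of gene and alternative, and the call ended in 159.

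The difference in detected genes was -1908 to -1692 with 1 unit left out, where the smallest p allowed is over 0.0357, so the call cannot be kept. The excess of the median SD in split over control morulae, 0.31, was 0.21 for genes of at least 50 CPM, 0.227 with blastomere 1, 0.206 with blastomere 2 and 0.123 without pair 3. The difference turned for Enpp3 without pair 3 (-10.14 to 3.50 over fits with 1 unit left out). List medians relative to all genes turned under limma-voom for the proteasome (0.18), large ribosomal subunit (0.095), complex I (0.0546), complexes III to V (0.0607) and imprinted genes (-0.0757). With 1 unit left out, medians ranged over 0 for mitochondrial rRNA (-0.0874 to 0.534, lowest without pair 3), two-cell stage (-0.26 to 0.634, lowest without pair 3), sperm (-1.25 to 2.90, lowest without pair 3), replication (-0.00972 to 0.298, lowest without pair 2) and imprinted genes (-0.00282 to 0.492, lowest without pair 1). Blastomere 2 alone turned remodellers (-0.0878) and sperm (-1.18), and the two-cell stage list turned with blastomere 1 (-0.0181) and with only 2 groups in the fit (-0.00248). The causes were not tested.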
